A study of Mus musculus with 6 samples.

Results

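The 10 genes described here encode the sensors of the unfolded protein response, the transcription factors they release and the proteases that release them. They were taken by name from the 23284 genes of the deposited mouse liver count files, and all 10 had enough reads to be tested among 12453 tested genes. The data came from male mice with a floxed FXR gene. At 8 weeks of age every mouse received an adeno-associated virus (AAV8) carrying Cre recombinase under the TBG promoter, which is active in hepatocytes, together with a second AAV8 that delivered FXR from the same promoter. In 3 mice the delivered receptor was wild type (FXR-WT), and in 3 it was Y67F-FXR, in which the tyrosine that Src phosphorylates is replaced by phenylalanine. FXR is the nuclear receptor for bile acids. After 4 weeks all 6 mice ate chow with 0.5% cholic acid, a bile acid, for 6 h, so both groups carried the Cre, the floxed alleles, the viruses and the diet. There was no liver without FXR, without virus or without cholic acid among the 6, and only cells in which the TBG promoter works could lose or gain the receptor. The comparison asked which transcripts differ when this tyrosine cannot be phosphorylated.

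Proteins that enter the endoplasmic reticulum (ER) fold there with the help of chaperones, and hepatocytes, which secrete most plasma proteins, carry a heavy folding load. When unfolded proteins build up, 3 kinds of ER membrane sensor respond. IRE1alpha, encoded by Ern1, is a kinase and ribonuclease that cuts a short intron out of Xbp1 mRNA, and the spliced mRNA encodes the active transcription factor XBP1. PERK, encoded by Eif2ak3, phosphorylates the initiation factor eIF2alpha, which lowers translation in general and favours that of ATF4. ATF6 and its relative ATF6B leave the ER for the Golgi, where the site-1 and site-2 proteases, encoded by Mbtps1 and Mbtps2, cut them and free a DNA-binding fragment. The same proteases cut CREB3L3 (CREBH), a factor made mainly in liver and gut that acts in lipid metabolism, its relatives CREB3 and CREB3L2, and the sterol-regulated SREBPs. The regulation of all these proteins by cutting, splicing and phosphorylation is not visible in counts of reads per gene, which measure mRNA abundance only.

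The place where IRE1alpha cuts Xbp1 shows what the count of that gene does and does not hold. A search of a GENCODE transcript of Xbp1 (GRCm38) for the textbook hairpin, a loop of 7 bases with the letters CNGCAGN closed by at least 4 paired bases, found 2 hairpins, with stems of 6 and 7 pairs. The cuts fall after the third base of each loop and enclose 26 bases at chr11:5524279-5524304, on the plus strand, in exon 4 of 5 and within the coding sequence. Removal of 26 bases leaves a remainder of 2 on division by 3, so it shifts the reading frame. The site is printed because it is the step that links Ern1 to Xbp1, with the excised bases in capitals and 14 bases of exon on each side in lower case:
Xbp1 splice site: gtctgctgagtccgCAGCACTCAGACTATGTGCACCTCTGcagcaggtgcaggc
The counts were summed over all exons of the gene, so spliced and unspliced Xbp1 mRNA cannot be told apart in these files.

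Xbp1 was the one member called lower in Y67F-FXR livers, where it fell to 52.2% of its level in FXR-WT livers. In CPM, the read count divided by the scaled size of its library, Xbp1 measured 399.4, 290.2 and 320.8 in the 3 FXR-WT livers and 164.6, 169.3 and 193.8 in the 3 Y67F-FXR livers. The groups did not overlap, and the lowest FXR-WT liver lay well above the highest Y67F-FXR liver. The means were 336.8 ± 56.4 (SD, n = 3) and 175.9 ± 15.7 (SD, n = 3), from 3104 to 8170 reads per library. The log2 fold change was -0.94 (SE 0.152, 95% interval -1.29 to -0.586), with an adjusted p of 0.0379 by edgeR's quasi-likelihood test, Benjamini-Hochberg adjusted over all tested genes. Genes are called here where the adjusted p is below 0.05 and the fold exceeds 1.5. Xbp1 lies at chr11:5420970-5425875 in mm9, the build of the count files, and none of its 1800 exon bases is shared with another gene. The call rested on all 6 livers: with any 1 of them left out the log2 fold change stayed between -1.03 and -0.802, but the adjusted p ranged from 0.0621 to 0.137.

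Of the 10 genes, 1 was called lower and 0 were called higher by edgeR, against 0.426% and 0.546% of all tested genes called lower and higher. At an unadjusted p under 0.05, 3 of the 10 were lower and 1 was higher, against 6.67% and 6.75% of all tested genes. DESeq2, edgeR's likelihood ratio test and a quasi-likelihood fit with a correction for gene length each called 2 of the 10 lower, Xbp1 and Atf6, and 0 higher. These called more of all tested genes as well: 1.55% lower and 1.6% higher in DESeq2, 1.81% and 1.77% in the likelihood ratio test, and 1% and 0.996% with the length correction. The 3 values of one group lay entirely below or above the 3 of the other for 4 genes, namely Xbp1, Atf6 and Atf6b, lower in Y67F-FXR, and Creb3l3, higher. Such separation was seen for 10.5% of all tested genes with Y67F-FXR lower and for 10.2% with Y67F-FXR higher. The median log2 fold change of the 10 was -0.07 (-0.22 to 0.00 with 1 liver left out), beside 0.01 over all tested genes, with 6 fitted lower and 4 fitted higher. Over all tested genes 53 were called lower and 68 higher, a split that turned to 68 lower and 52 higher when libraries were scaled by their totals alone. The 6 count files held 19551113 to 22053320 reads assigned to genes. Livers of the same group differed from each other beyond counting error, and genes under 1598 exon bases deviated together by -0.198 to 0.221 on the log2 scale from library to library, with the extremes both in Y67F-FXR livers.

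**Figure D1:**
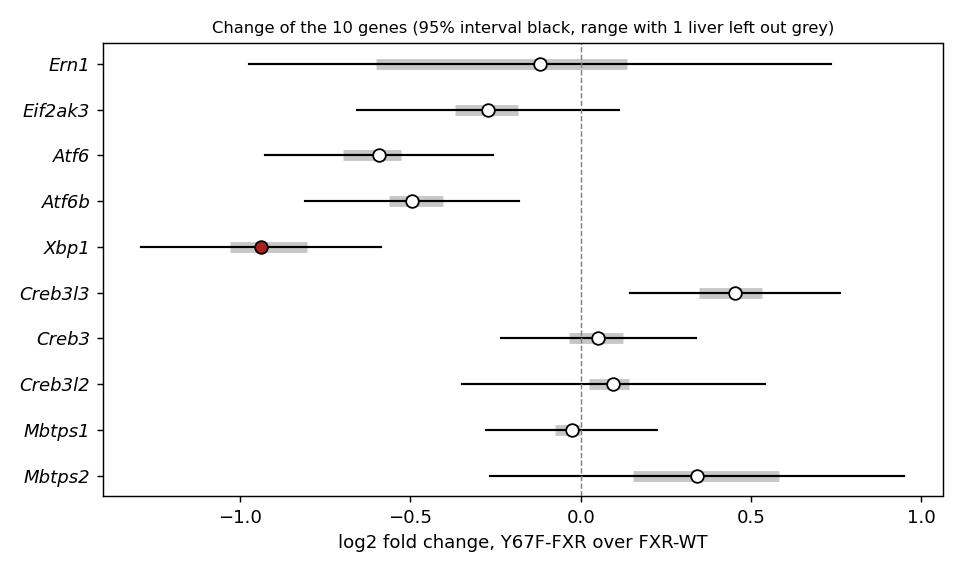
Log2 fold change of each of the 10 genes, Y67F-FXR over FXR-WT (horizontal axis), with points for the fit to all 6 livers, black lines for its 95% interval and grey bars for the range with 1 liver left out. The filled point is Xbp1, called lower, and the intervals of Atf6, Atf6b and Xbp1 lie below 0 while that of Creb3l3 lies above it.

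Among the sensors, both members of the ATF6 pair were lower in every Y67F-FXR liver than in any FXR-WT liver, though neither was called. Atf6 measured 59.5, 71.71 and 74.83 CPM in FXR-WT livers and 52.01, 41.08 and 43.53 CPM in Y67F-FXR livers. The highest Y67F-FXR liver, replicate 1, came close to the lowest FXR-WT liver, replicate 1. The log2 fold change was -0.59 (SE 0.145, 95% interval -0.927 to -0.258), with an unadjusted p of 0.00353 and an adjusted p of 0.122 by edgeR's quasi-likelihood test. Atf6 has 7463 exon bases, the longest gene model of the 10 (chr1:172634588-172797902, mm9), and its call depended on the tool: the adjusted p was 0.023 in DESeq2, 0.0304 in the likelihood ratio test and 0.0191 in a quasi-likelihood fit that corrects each library for a trend with gene length.

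Atf6b, which encodes the ATF6 relative that binds the same class of DNA element, measured 33.05, 27.39 and 27.39 CPM in FXR-WT livers and 19.05, 20.35 and 22.86 CPM in Y67F-FXR livers. In ratio, the gap between the groups was wider than for Atf6. Its log2 fold change was -0.50 (SE 0.136, 95% interval -0.81 to -0.182), with an unadjusted p of 0.00658 and an adjusted p of 0.159 in the same edgeR fit. The log2 ratio of Atf6 to Atf6b was 1.23 ± 0.33 in FXR-WT and 1.13 ± 0.278 (SD, n = 3 each) in Y67F-FXR. The exact two-sided permutation test of that ratio gave p = 0.9, and the 2 groups overlapped. Both genes were therefore lower by amounts whose difference, -0.10 on the log2 scale, was smaller than the spread between livers. Atf6b lies at chr17:34784125-34792017 in mm9.

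The 2 kinase sensors gave smaller differences. Eif2ak3 (PERK) measured 9.631, 9.696 and 8.036 CPM in FXR-WT livers and 8.554, 6.492 and 7.59 CPM in Y67F-FXR livers. The groups overlapped through Y67F-FXR replicate 1, which lay above FXR-WT replicate 3. The log2 fold change was -0.27 (95% interval -0.655 to 0.112), with an adjusted p of 0.563 by edgeR, from 119 to 200 reads per library. The interval reaches from a fall as large as that of Atf6 to a small rise.

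Ern1 (IRE1alpha), the sensor that splices Xbp1 mRNA, had the widest spread of the 10. It measured 4.4, 6.012 and 8.166 CPM in FXR-WT livers and 8.943, 3.437 and 4.726 CPM in Y67F-FXR livers, so that the highest and the lowest of the 6 values were both in Y67F-FXR livers. Its coefficient of variation was 30.5% in FXR-WT and 50.5% in Y67F-FXR, against 16.7% and 8.92% for Xbp1. From 63 to 189 reads per library gave a log2 fold change of -0.12 (95% interval -0.972 to 0.736, adjusted p = 0.942 by edgeR), and a fall as large as that of Xbp1 lies within the interval. The fitted sign turned with 1 liver left out: it was 0.14 without FXR-WT replicate 3, 0.13 without Y67F-FXR replicate 2 and 0.00 without Y67F-FXR replicate 3. The order of the 6 livers by Ern1 was the order by the deviation of genes of at least 4730 exon bases, which was lowest in Y67F-FXR replicate 2 (-0.166 on the log2 scale) and highest in Y67F-FXR replicate 1 (0.194). This match was noticed after the values were seen, Ern1 itself has 3976 exon bases, and its part in the result was not tested beyond the length-corrected fit, which gave a log2 fold change of -0.15 for Ern1.

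The ratios that set each pair of sensors or sensor and target side by side did not separate the groups. The log2 ratio of Ern1 to Eif2ak3 differed by 0.09 between the groups (exact permutation p = 0.7). The log2 ratio of Xbp1 to Ern1 differed by -0.74, with SDs of 0.623 and 0.744 that come mostly from Ern1 (exact permutation p = 0.5). In 3 against 3 livers this test cannot give a p below 0.10, and 6 ratios were compared in all. Ern2, the gut paralog of Ern1, had 0 reads in all 6 libraries and was not detectable at this depth. A count of 0 in any 1 library, taken alone, allows up to 3 reads there.

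Creb3l3 lay on the other side. It measured 320.6, 389.7 and 415.9 CPM in FXR-WT livers and 490.6, 533 and 518.2 CPM in Y67F-FXR livers. Every Y67F-FXR liver lay above every FXR-WT liver. The means were 375.4 ± 49.3 and 513.9 ± 21.5 CPM (SD, n = 3 each), and the log2 fold change was 0.45 (SE 0.134, 95% interval 0.144 to 0.762). With an unadjusted p of 0.0097, an adjusted p of 0.184 by edgeR's quasi-likelihood test and a fold of 1.37, Creb3l3 was not called. It had on average the most reads of the 10, with 6557 to 10855 reads per library, and lies at chr10:80547078-80561617 in mm9.

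Its relatives gave smaller differences. Creb3, also called Luman, measured 50.65, 47.8 and 45.28 CPM in FXR-WT livers and 44.57, 54.83 and 49.64 CPM in Y67F-FXR livers. The log2 fold change was 0.05 (95% interval -0.234 to 0.339, adjusted p = 0.919 by edgeR), the groups overlapped, and the sign turned to -0.02 when libraries were scaled by their totals. Creb3 shares at least 133 of its 1582 exon bases with Gba2, the largest overlap with any 1 exon of that gene. The reads of that stretch cannot be assigned to either gene. Creb3l2, known for its role in secretory cells such as chondrocytes, measured 3.08, 2.86 and 2.679 CPM in FXR-WT livers and 2.916, 2.891 and 3.389 CPM in Y67F-FXR livers, from 53 to 71 reads per library. Its log2 fold change was 0.10 (95% interval -0.349 to 0.54, adjusted p = 0.900 by edgeR).

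The log2 ratio of Creb3l3 to Creb3 was 2.96 ± 0.274 in FXR-WT and 3.37 ± 0.0896 (SD, n = 3 each) in Y67F-FXR, and of the 6 ratios compared it was the one whose groups did not overlap. The exact two-sided permutation p was 0.1, the smallest the design allows, and 0.4 after adjustment over the 6. The log2 ratio of Creb3l3 to Creb3l2 differed by 0.37 with overlapping groups (exact permutation p = 0.2, adjusted 0.4). Of the other members of this family in the count files, Creb3l1 measured a log2 fold change of -0.95 with an unadjusted p of 0.0267 and an adjusted p of 0.285 by edgeR, from at most 36 reads per library. Creb3l4 had at most 8 reads per library and was not tested.

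The proteases that free ATF6 and the CREB3 family did not separate the groups. Mbtps1 (site-1 protease) was the steadiest of the 10 in FXR-WT livers, at 53.78, 54.98 and 56.04 CPM, and measured 57.55, 51.72 and 52.6 CPM in Y67F-FXR livers. The log2 fold change was -0.03 (SE 0.109, 95% interval -0.277 to 0.225, adjusted p = 0.958 by edgeR), so changes beyond that interval in either direction lie outside what these 6 livers allow at 95%. Mbtps2 (site-2 protease), an X-linked gene, measured 3.471, 3.103 and 5.055 CPM in FXR-WT livers and 6.124, 3.764 and 4.869 CPM in Y67F-FXR livers. With 64 to 126 reads per library its log2 fold change was 0.34 (SE 0.263, 95% interval -0.265 to 0.95, adjusted p = 0.666 by edgeR), and the groups overlapped. The log2 ratio of Mbtps1 to Mbtps2 differed by -0.37 between the groups (exact permutation p = 0.2, adjusted 0.4).

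**Figure D2:**
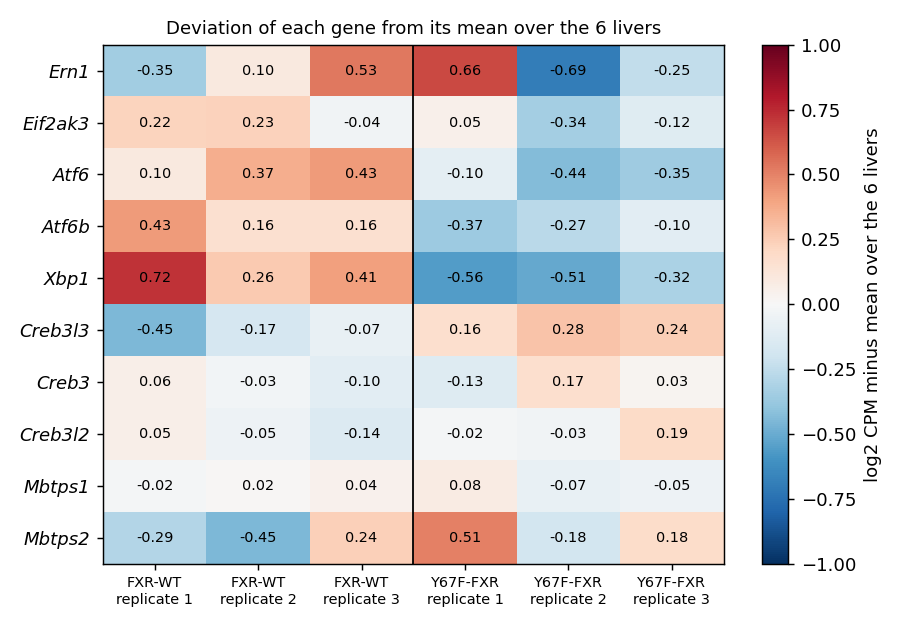
Deviation of each gene's log2 CPM from its own mean over the 6 livers, with genes in rows, livers in columns and red above, blue below the mean. Xbp1, Atf6 and Atf6b are higher in the 3 FXR-WT livers at left than in any Y67F-FXR liver and Creb3l3 is lower, while Ern1 runs from 0.66 to -0.69 within the Y67F-FXR group.

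Set on a scale per exon length (RPKM, the scaled CPM per kilobase of exon), Xbp1 and Creb3l3 stood far above the rest in both groups. In FXR-WT livers Xbp1 averaged 187 ± 31.3 RPKM and Creb3l3 164 ± 21.6 RPKM, and their values overlapped. In Y67F-FXR livers Creb3l3 averaged 225 ± 9.43 RPKM and Xbp1 97.7 ± 8.71 RPKM, without overlap. The ratio of Creb3l3 to Xbp1 per length was 0.633, 1.06 and 1.02 in the FXR-WT livers and 2.35, 2.48 and 2.11 in the Y67F-FXR livers. This ratio was looked at after the values of both genes were known and was given no test.

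Below them the order was nearly the same in both groups. Creb3 came next, at 30.3 ± 1.7 RPKM in FXR-WT and 31.4 ± 3.24 in Y67F-FXR, and Mbtps1 followed at 12.6 ± 0.258 and 12.3 ± 0.718. Atf6b averaged 11.6 ± 1.29 RPKM in FXR-WT and 8.2 ± 0.766 in Y67F-FXR, and Atf6 9.2 ± 1.09 and 6.1 ± 0.768 (SD, n = 3 each). Mbtps1 and Atf6b overlapped in FXR-WT livers and did not overlap in Y67F-FXR livers. Eif2ak3 averaged 2.03 RPKM in FXR-WT and 1.68 in Y67F-FXR, Ern1 1.56 and 1.43, Creb3l2 0.866 and 0.924, and Mbtps2 0.808 and 1.03. Within these 4 low genes, Eif2ak3 and Ern1 overlapped in both groups, as did Creb3l2 and Mbtps2, and Ern1 and Mbtps2 overlapped in Y67F-FXR livers.

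**Figure D3:**
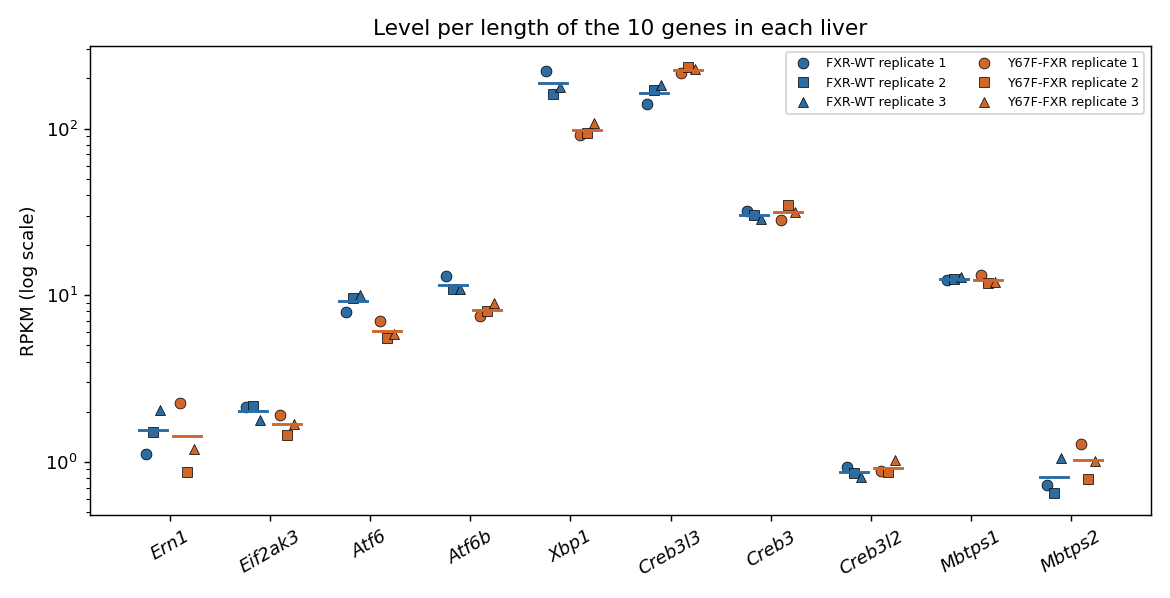
Level per exon length (RPKM, log axis) of the 10 genes in each liver, with a marker for each replicate and a bar for the group mean. Xbp1 and Creb3l3 lie within the same range in FXR-WT livers and apart in Y67F-FXR livers, at 91.4 to 108 and 215 to 233 RPKM.

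The genes whose pattern over the 6 livers was most like that of Xbp1 were sought among the 7173 genes that averaged 10 CPM or more, by the root mean square difference of their log2 CPM deviations. The 5 nearest were Slc35b1 at 0.086, Cars at 0.0985, Sec23b at 0.101, Calr at 0.102 and Fkbp4 at 0.111. Calr, a chaperone of newly made glycoproteins, was called lower (log2 fold change -0.90, adjusted p = 0.0381 by edgeR), and the other 4 had log2 fold changes of -0.95 to -0.73 with adjusted p of 0.0548 to 0.0847. Nearness here is a description over 6 livers that share their 2 groups.

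Promoter windows from RefSeq (GRCm38.p6), cut to the 250 bases before each start, were found for 9 of the 10 genes, Atf6 being the one with no entry. They are shown for the members that lay apart between the groups, to let the letters before each start be read. Capitals mark ACGTG, the core of the elements that XBP1 and ATF6 bind, and CCACG, the second part of the ER stress element, on either strand:
Xbp1 (chr11:5520391-5520640, plus strand): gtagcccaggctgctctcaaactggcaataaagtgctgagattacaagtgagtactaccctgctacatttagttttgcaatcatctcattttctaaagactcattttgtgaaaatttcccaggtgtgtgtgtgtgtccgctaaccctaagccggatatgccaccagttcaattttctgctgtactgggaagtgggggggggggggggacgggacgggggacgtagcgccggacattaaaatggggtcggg
Atf6b (chr17:34646896-34647145, plus strand): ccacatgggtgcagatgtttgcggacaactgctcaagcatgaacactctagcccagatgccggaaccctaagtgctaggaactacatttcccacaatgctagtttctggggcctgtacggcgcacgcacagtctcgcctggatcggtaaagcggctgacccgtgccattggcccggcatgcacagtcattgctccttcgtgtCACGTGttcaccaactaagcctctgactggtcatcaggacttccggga
Creb3l3 (chr10:81098873-81099122, minus strand): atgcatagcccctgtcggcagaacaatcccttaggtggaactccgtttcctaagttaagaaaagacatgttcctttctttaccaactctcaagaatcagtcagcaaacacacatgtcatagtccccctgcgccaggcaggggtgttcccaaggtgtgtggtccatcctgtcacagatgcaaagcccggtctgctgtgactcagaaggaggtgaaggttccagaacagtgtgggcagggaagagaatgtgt
RefSeq gives Creb3l3 2 starts, and the window shown is the one farther upstream.

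The Atf6b window held ACGTG on both strands, starting 48 and 47 bases before the start and overlapping in a palindrome, and the Xbp1 and Creb3l3 windows shown held no match to either. The letters ACGTG were present in 16.6% of the 32851 windows of this length and in those of Atf6b and Creb3, and CCACG was present in 28.3% of windows and in those of Ern1, Creb3, Mbtps1 and the other window of Creb3l3. The full ER stress element, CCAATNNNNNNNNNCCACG on either strand, was in 0.113% of windows and in none of the 10 windows of these genes, and TGACGTG, which contains ACGTG, was in 1.65% and likewise in none. The element also contains CCAAT and CCACG, and ACGTG followed by G overlaps CCACG on the other strand, as in the Creb3 window. CCAAT was in 33.8% of windows, among them 4 of these 10, and AGGTCA, a single arm of the sites that FXR and other nuclear receptors bind, was in 14% and in 1, the other Creb3l3 window. The windows depend on the start chosen: the first exon of Xbp1 spans 234 bases in the gene model of the count files and 542 bases in the GENCODE transcript. A match marks letters only, and its absence says nothing beyond this window.

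Many genes that XBP1 and ATF6 are known to activate were lower in Y67F-FXR livers. Of 24 ER chaperones and components of ER-associated degradation (ERAD), which removes misfolded proteins, 10 were called lower and 0 higher by edgeR. Of all tested genes 0.426% were called lower and 0.546% higher. At an unadjusted p under 0.05, 16 of the 24 were lower and 0 higher, against 6.67% and 6.75% of all tested genes. The fit put all 24 lower, and their median was -0.92 on the log2 scale beside 0.01 over all tested genes. The genes called were Sdf2l1 (log2 fold change -2.89), Manf (-2.19), Creld2 (-2.07), Hyou1 (-1.80), Hspa5 (-1.68), Pdia4 (-1.35), Pdia6 (-1.15), Dnajb11 (-1.08), Pdia3 (-1.07) and Calr, with adjusted p of 0.0139 to 0.044. Hspa5 encodes BiP, the chaperone that holds IRE1alpha, PERK and ATF6 inactive, and Hyou1 and Dnajb11 encode its partners. The 14 genes that did not pass ran from -2.57 for Derl3 (adjusted p = 0.0872) to -0.14 for Derl1 (adjusted p = 0.705), with Hsp90b1 at -1.05 (adjusted p = 0.0722) and Dnajb9 at -0.26 (adjusted p = 0.596). With 1 liver left out the number called lower ran from 0, when the liver dropped was replicate 3 of either group, to 12, without FXR-WT replicate 2. It was 2 without Y67F-FXR replicate 1, 5 without Y67F-FXR replicate 2 and 6 without FXR-WT replicate 1. The sizes moved little in these fits, with Hspa5 between -1.85 and -1.48 and Sdf2l1 between -3.16 and -2.61 on the log2 scale. The 2 fits that called none of the list called 7 and 17 genes lower in the whole table, against 53 with all 6 livers.

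The summed level of the 24 genes was 10130, 6987 and 9051 CPM in FXR-WT livers and 4578, 4109 and 4569 CPM in Y67F-FXR livers. Its largest terms were Hsp90b1, Hspa5, Calr and Pdia3, at 1939, 1798, 1411 and 1012 CPM in FXR-WT replicate 1, so it mostly describes these abundant genes. Among the 3 FXR-WT livers the sum had the order of Xbp1, highest in replicate 1 and lowest in replicate 2, but not every gene of the list had that order. Within the Y67F-FXR group both ranges were narrow, and the liver with the lowest Xbp1, replicate 1, did not have the lowest sum.

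**Figure D4:**
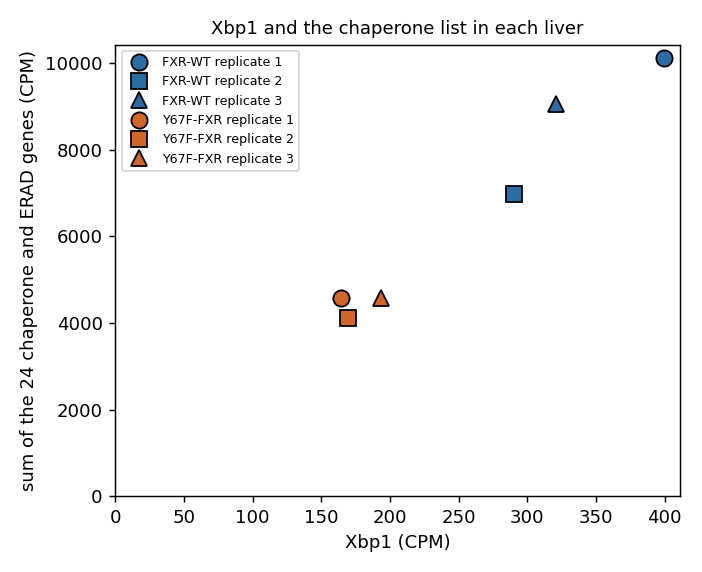
Xbp1 (horizontal axis, CPM) against the summed level of 24 chaperone and ERAD genes (vertical axis, CPM) in each of the 6 livers, with both axes starting at 0. The 3 FXR-WT livers lie at 290.2 to 399.4 CPM of Xbp1 and 6987 CPM or more of the sum, and the 3 Y67F-FXR livers at 164.6 to 193.8 CPM and 4578 CPM or less.

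In the PERK and ATF4 arm, 14 genes were measured, and 0 were called by edgeR in either direction. Of all tested genes 0.426% were called lower and 0.546% higher. At an unadjusted p under 0.05, 3 of the 14 were lower and 2 were higher, against 6.67% and 6.75% of all tested genes. The median log2 fold change of the 14 was -0.44, and it was 0.01 without FXR-WT replicate 1 and -0.59 to -0.29 without any other single liver. The smallest p belonged to Chac1, which encodes a glutathione-degrading enzyme and gave a log2 fold change of -2.01 (adjusted p = 0.0768), then to Eif2s1, the eIF2alpha subunit itself, at -0.47 (adjusted p = 0.192), and to Sesn2 at 0.86 (adjusted p = 0.271). DESeq2 and the likelihood ratio test each called 1 of the 14 lower and 0 higher, where they called 1.55% and 1.81% of all tested genes lower. Of the other kinases of eIF2alpha, Eif2ak1, Eif2ak2 and Eif2ak4 had log2 fold changes of 0.09, -0.25 and -0.14 with adjusted p of 0.663 to 0.863.

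Among 9 partners of IRE1alpha, which include its adaptor Traf2, the tRNA ligase that rejoins cut Xbp1 mRNA (Rtcb, listed as D10Wsu52e) and the RNA target Bloc1s1, 0 were called by edgeR, DESeq2 or the likelihood ratio test. At an unadjusted p under 0.05, 0 of the 9 were lower and 2 were higher, against 6.67% and 6.75% of all tested genes. The 2 were Tmbim6, an inhibitor of IRE1alpha, at 0.32 (adjusted p = 0.326) and Map3k5, a kinase IRE1alpha activates, at 0.35 (adjusted p = 0.37). Rtcb itself gave 0.03 (adjusted p = 0.968), and the third gene by p, Bax, gave -0.16 (adjusted p = 0.857). The median of the 9 was 0.03, and -0.06 to 0.11 with 1 liver left out.

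Among 14 genes for other substrates of the site-1 and site-2 proteases, their retention factors and the COPII coat that carries them to the Golgi, 1 was called higher by edgeR and 0 lower. Of all tested genes 0.546% were called higher and 0.426% lower. Insig2, which keeps SREBPs in the ER, rose by 0.95 on the log2 scale (SE 0.134, adjusted p = 0.0244). Its paralog Insig1, a target of SREBP, measured -0.92 (adjusted p = 0.124), and the coat gene Sec23b measured -0.95 (adjusted p = 0.0548) while Sec23a measured 0.59 (adjusted p = 0.21). At an unadjusted p under 0.05, 2 of the 14 were lower and 3 were higher, against 6.67% and 6.75% of all tested genes. DESeq2 and the likelihood ratio test each called 2 of the 14 lower, where they called 1.55% and 1.81% of all tested genes lower. With 1 liver left out Insig2 was called in none of the 6 fits, at log2 fold changes of 0.882 to 1.07 and adjusted p of 0.0537 to 0.105. Those fits called 2 to 35 genes higher in the whole table, against 68 with all 6 livers.

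Of 12 genes that CREB3L3 is known to activate, 1 was called higher and 0 lower by edgeR, against 0.546% and 0.426% of all tested genes. At an unadjusted p under 0.05, 5 of the 12 were higher and 2 were lower, against 6.75% and 6.67% of all tested genes. G6pc, the glucose-6-phosphatase of gluconeogenesis, rose by 3.42 on the log2 scale (SE 0.475, adjusted p = 0.0244). Pck1, the other key enzyme of gluconeogenesis, measured 1.09 (adjusted p = 0.0872). The acute-phase gene Apcs measured -1.001 (adjusted p = 0.0994), and Fgf21, a fasting hormone, measured -1.64 (adjusted p = 0.256), a value that FXR-WT replicate 1 set in large part, since without that liver it was -0.56 (adjusted p = 0.351). DESeq2 and the likelihood ratio test each called 4 of the 12 higher and 1 lower. Of all tested genes DESeq2 called 1.6% higher and 1.55% lower, and the likelihood ratio test 1.77% and 1.81%. With 1 liver left out, 2 of the 12 were called higher when that liver was FXR-WT replicate 1 or 2, 1 when it was Y67F-FXR replicate 2 and 0 in the other 3 fits. G6pc itself lay between 3.05 and 3.96 on the log2 scale in these fits, with adjusted p of 0.02 to 0.105. The median was 0.24.

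**Figure D5:**
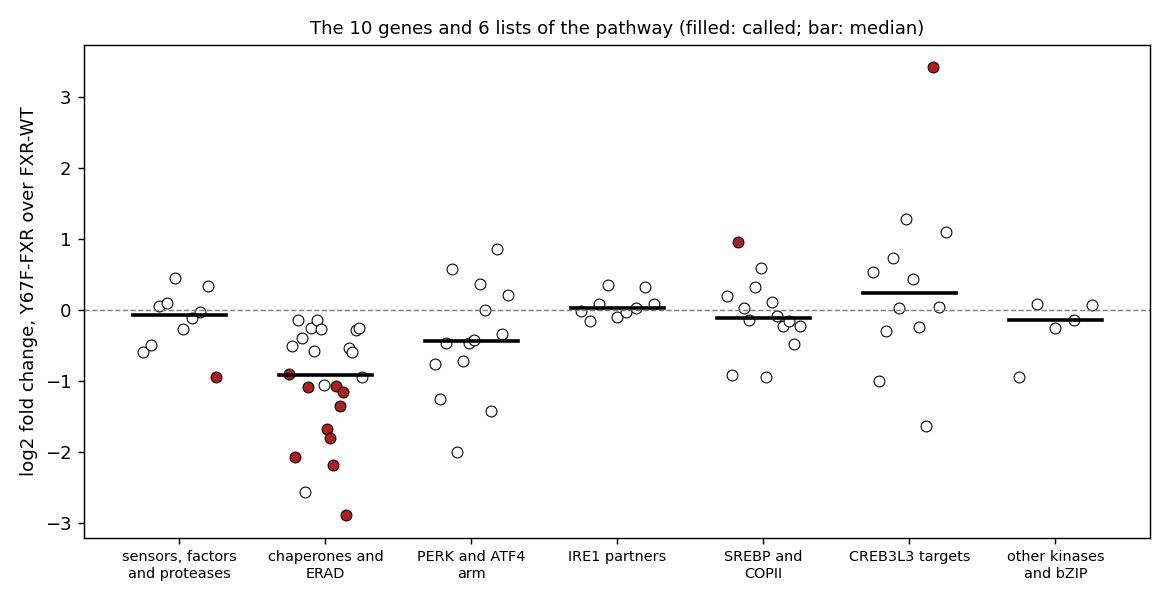
Log2 fold change of the 10 sensor, factor and protease genes and of 6 lists of related genes, Y67F-FXR over FXR-WT (vertical axis), with a point for each tested gene, filled where called, and a bar at the median of each group. The chaperone and ERAD list lies wholly below 0 with a median of -0.92, while the medians of the other lists run from -0.44, which was 0.01 without FXR-WT replicate 1, to 0.24.

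These were whole livers, so fewer cells of a type and less RNA per cell cannot be told apart. The hepatocyte markers Alb, Ttr, Apoa1, Apoh and Tat were present in all libraries, with summed levels of 93010 to 108000 CPM in FXR-WT and 91250 to 114100 CPM in Y67F-FXR livers. Of 5 markers of B and plasma cells, the latter known to make much Xbp1, 3 had enough reads to be tested, namely the B-cell genes Cd79a and Cd79b and the plasma cell gene Jchain (listed as Igj). The sum of these 3 was 4.148 to 6.16 CPM in FXR-WT and 3.84 to 8.347 CPM in Y67F-FXR livers, and none of the 5 was at 0 in all libraries. Stellate cell markers had sums of 67.63 to 92.7 CPM in FXR-WT and 52.43 to 64.4 CPM in Y67F-FXR livers, without overlap. At an unadjusted p under 0.05, 3 of these 6 markers were lower, against 6.67% of all tested genes. The part of stellate cells in the values of Xbp1, Atf6, Atf6b and the chaperone and ERAD list was not tested. Kupffer cell, endothelial and cholangiocyte markers overlapped in their sums, with 0, 1 and 0 members at an unadjusted p under 0.05. In the edgeR fit used throughout 0 marker genes were called. Other fits, among them DESeq2, the likelihood ratio test, the length-corrected fit, the fit scaled by RLE size factors and the fit without a filter on low counts, each called 1 stellate marker lower and no other marker. Nr1h4, the mouse FXR gene, measured 152.1 to 209.1 CPM in FXR-WT and 169.1 to 186.1 CPM in Y67F-FXR livers. The study's methods describe its flag-tagged FXR as human and do not say whether the receptor delivered by AAV was the same construct, so how many of its reads would count as mouse Nr1h4 is unknown, and these values do not check the labels.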

How the data were processed

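RNA from 6 livers was sequenced by the authors as paired 100-base reads on an Illumina HiSeq2000, with 1 library per biological sample. The submitters' processing notes name bcl2fastq 2.17.1.14, Trimmomatic 0.36, FastQC 0.11.5, STAR 2.5.3a and the mm9 build. Per the file headers, the authors made the deposited counts with featureCounts 1.4.6-p4, without strand and without its paired-read option, over the exons of each gene of a UCSC mm9 annotation, so mates were counted as single reads. A further deposited table holds the authors' own comparison (fold changes and p-values) and was not used.

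Counts were tested with edgeR 4.0.16 in R 4.3.3 (default expression filter by group, TMM scaling, quasi-likelihood test), 3 Y67F-FXR against 3 FXR-WT livers without covariates, with Benjamini-Hochberg adjustment over 12453 genes. Calls needed an adjusted p below 0.05 with more than a 1.5-fold difference. Intervals are 95% and come from that fit. On simulated counts for this comparison over 12453 genes, with 200 changed by 2 on the log2 scale, the test recovered 93.5% of them, and 5.08% of its calls were false, against 17.6% of those of the likelihood ratio test and 13.8% of those of DESeq2. Smaller changes, such as those of the members, were not simulated. Ratios of gene pairs used exact permutation tests. CPM values carry the TMM scaling. Alternatives were DESeq2 1.42.0, the likelihood ratio test, other scalings and filters, a gene length correction, a replicate block and leaving out each liver. The genes and lists were chosen with earlier results of these data known. Named genes were the 10 members, the 3 genes with the smallest p and any called gene of each pathway list, Nr1h4 and the 5 genes nearest to Xbp1. Derl3, Derl1, Hsp90b1, Dnajb9, Sec23a, Rtcb, Traf2, Bloc1s1, Fgf21, Eif2ak1, Ern2, Creb3l4 and the markers named were added after their values were seen. Counting error grows as reads fall, and is largest for Creb3l2, the member with the fewest reads. Promoter windows are RefSeq's and the Xbp1 site was located in GENCODE transcripts, both on GRCm38, and no coordinate was converted between builds. Figures were drawn with matplotlib 3.10.9.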

Additional observations from a re-analysis of the deposited data

How the results depend on the processing

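The signs of Xbp1, Atf6, Atf6b, Eif2ak3, Creb3l3, Creb3l2, Mbtps1 and Mbtps2 were the same in every fit run. Creb3 turned to -0.0209 under library totals and ran from -0.035 to 0.125 with 1 liver left out, and Ern1 ran from -0.60 to 0.135. The genes called over the whole table numbered 121, and 419 in DESeq2, 447 in the likelihood ratio test, 249 with the gene length correction and 9 to 66 with 1 liver left out. Of the 10 members, DESeq2, the likelihood ratio test and the length correction called 2 lower (Xbp1 and Atf6), and 0 to 0 were called with 1 liver left out. Equal replicate numbers do not pair the samples: the correlations of same-numbered deviations were -0.517, -0.0804 and 0.121, and 1 of 6 livers correlated best with its own number. With a replicate block 8 genes were called and 0 members, Xbp1 measuring -0.93 (adjusted p = 0.179), and 2 of the 24 chaperone and ERAD genes. With the block and the length correction together 96 genes were called, with Xbp1 at -0.91 (adjusted p = 0.0439). The causes of these shifts were not tested. Counting error is largest for Creb3l2, with 53 to 71 reads per library.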
